A study of Mus musculus with 21 samples.

Results

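The genes described here are 10 markers of the neutrophil granule and myeloid effector program in the mouse. They were given as a list of names, with no threshold on a measured value: Mpo, Elane, Prtn3, Ctsg, S100a8, S100a9, Lyz2, Cebpa, Cebpe and Ms4a3. All 10 were found among the 27968 genes of the table of sorted cells. In the table of day 5 total cells, which lists 22899 genes and gives values for 19321 of them, 8 of the 10 had values, and the entries of S100a8 and S100a9 were blank in all 6 libraries. Levels are FPKM, fragments scaled to the length of the transcript and to the size of the library, so that genes of different length can be compared within a library.

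Neutrophils carry their weapons in granules that are filled in order as the cell matures. The primary granules are made first, in promyelocytes, and hold myeloperoxidase and the serine proteases neutrophil elastase, proteinase 3 and cathepsin G. Secondary and tertiary granules follow, with lactoferrin, lipocalin and gelatinase, and the calcium-binding pair S100A8 and S100A9 fills the cytosol. The transcription factor C/EBPα acts at the step where progenitors commit to the granulocyte and monocyte lineages, and C/EBPε acts later and drives the secondary granule genes. In the blood-forming tissues these genes mark committed myeloid progenitors and their progeny, whereas the stem cell fraction is isolated as lineage-negative cells with Sca-1 and c-Kit on the surface (LSK), here with CD201, the endothelial protein C receptor encoded by Procr.

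RNA-seq was available for 21 libraries in 7 groups of 3. In the sorted-cell table, mESC were undifferentiated 129/ola embryonic stem cells sorted on SSEA-1. D5-LSKCD201+ and D5-LSKCD201- were LSK cells with and without CD201, sorted at day 5 of OP9 coculture from 129/ola cells that had first been differentiated in a 3D self-assembling peptide. BM-LSKCD201+ came from the bone marrow of C57BL/6 mice of 6-8 weeks, and FL-LSKCD201+ from C57BL/6 fetal liver at E12.5. In the second table, day 5 total cells of 129/ola origin were grown on OP9 stroma (3D+OP9) or on 0.1% gelatin (3D+0.1% gelatin) after the same 3D step. Strain differs between every derived group and both in vivo groups, so strain and origin cannot be told apart in those comparisons. This rests on the labels, since the study's methods name stem cells of 129/ola and of C57BL/6 origin. The study calls the sorted libraries biological replicates, and the labels do not say which cultures or animals they came from, so p-values measure the spread between these libraries.

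The gate genes followed the labels in part. Procr stood at 3.02 to 3.82 FPKM in D5-LSKCD201- and at 57.9 to 61.9 in D5-LSKCD201+, with 117 to 123 in BM-LSKCD201+ and 66.6 to 69.4 in FL-LSKCD201+. Kit and Ly6a, which encode c-Kit and Sca-1, were detected in all 4 LSK groups, whereas Ptprc, the pan-leukocyte gene for CD45, stayed at or below 0.935 FPKM in every D5 library against 38.4 to 71.6 in the in vivo libraries. The pluripotency gene Pou5f1 was at 249, 155 and 258 FPKM in D5-LSKCD201-, against 424 to 429 in mESC. It was at or below 2.67 FPKM in D5-LSKCD201+ and at or below 0.766 in the in vivo libraries. Some libraries stood apart within their group. Over 14457 genes, the SD of the log2 difference from the other libraries of the group was 0.433 and 0.453 for FL-LSKCD201+ replicate 1, 0.333 and 0.337 for BM-LSKCD201+ replicate 1, and 0.400 and 0.407 for D5-LSKCD201- replicate 2, against 0.144, 0.138 and 0.160 between the remaining libraries of those groups. The number of reads per library is unknown from FPKM. These are bulk values, in which a larger share of cells of a type and more RNA per cell cannot be told apart.

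Tests used limma on log2(FPKM + 1) within one table, and a gene was called when its Benjamini-Hochberg adjusted p over all genes tested was under 0.05 and its log2 difference was at least 1 in size. Differences are on the log2(FPKM + 1) scale, which understates the change of genes with low values. Genes whose mean over the 6 libraries compared was under 0.5 FPKM were not tested.

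Mpo encodes myeloperoxidase, which makes hypochlorous acid in the primary granule, and was the most abundant of the 10 genes in fetal liver cells. Its level was 922, 821 and 811 FPKM in FL-LSKCD201+ and 54.7, 49.3 and 51.3 in BM-LSKCD201+. The CD201- derived cells had 6.37, 5.61 and 5.45, the CD201+ derived cells 3.91, 4.38 and 4.11, and mESC 0.473, 0.452 and 0.774 FPKM. No group overlapped the next one in this order. The mean was 16.4-fold higher in FL-LSKCD201+ than in BM-LSKCD201+.

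Elane encodes neutrophil elastase and was high in fetal liver cells alone among the 5 sorted groups. It was at 198, 244 and 247 FPKM in FL-LSKCD201+ against 0.714, 0.355 and 0.101 in BM-LSKCD201+. In the 9 other sorted libraries it lay between 0 and 0.204, and the 4 groups other than FL-LSKCD201+ overlapped each neighbour in the order of means.

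Ctsg encodes cathepsin G and was likewise high in fetal liver cells alone among the sorted groups. It was at 147, 173 and 173 FPKM in FL-LSKCD201+ and at 0.141, 0.299 and 0.401 in BM-LSKCD201+. The 9 derived and mESC libraries lay between 0.0480 and 0.260 and overlapped the bone marrow libraries.

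Prtn3 encodes proteinase 3 and was the exception among the granule proteases. Its level was 250.7, 341 and 357 FPKM in the bone marrow libraries and 236, 364 and 356 in the fetal liver libraries. Replicate 1 was the lowest library of both groups, and the groups overlapped over nearly their whole range. In the derived cells Prtn3 was at 1.57, 1.19 and 1.94 FPKM in D5-LSKCD201-, at 0.727, 0.570 and 0.464 in D5-LSKCD201+, and in mESC at 0.353, 0.887 and 0.305.

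Read within each library, the composition of the primary granule transcripts therefore differed between the in vivo groups. Elane amounted to 0.735 ± 0.091 (SD, n = 3) of the Prtn3 level in FL-LSKCD201+ and to 0.00139 ± 0.00132 in BM-LSKCD201+. The bone marrow mean depends on replicate 1, with ratios of 0.00285, 0.00104 and 0.000283 and Elane at or below 0.714 FPKM. The ratio of Mpo to Prtn3 was 2.81 ± 0.95 in fetal liver and 0.169 ± 0.043 in bone marrow. In contrast, the ratio of S100a8 to S100a9 was 1.06 ± 0.16 and 1.05 ± 0.044.

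Prtn3 and Elane lie in tandem on chromosome 10. In the GENCODE M21 annotation of GRCm38, Prtn3 (ENSMUSG00000057729) spans chr10:79874476-79883174 and Elane (ENSMUSG00000020125) spans chr10:79886247-79888215, both on the plus strand, with 3072 bases between them. The start of Prtn3 overlaps by 159 bases the gene Plppr3 on the opposite strand, and the locus printed in the deposited table for Prtn3 is shared with Plppr3, Ptbp1 and E130317F20Rik. Plppr3 was at 111 ± 5.19 FPKM in BM-LSKCD201+ and 41.4 ± 6.00 in FL-LSKCD201+ (SD, n = 3). Whether counting used strand is not given in the sources used here, and a part of these reads in the Prtn3 value was not tested.

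Mpo (ENSMUSG00000009350) is on chr11:87793581-87804413 on the plus strand and Ctsg (ENSMUSG00000040314) on chr14:56099881-56102574 on the minus strand. The stretches upstream of these 4 genes are shown because the genes were high together in fetal liver cells and only 2 of them were high in bone marrow cells. They come from the RefSeq promoter windows of GRCm38.p6, which run from 250 bases before to 50 bases after each RefSeq start, are written 5′ to 3′ on the gene's strand, and lie in no GENCODE M21 exon. The stretch of Prtn3 lies inside the GENCODE span of the gene, whose annotated start is further upstream than that of RefSeq. Capitals mark any match, on either strand, to the letters GAGGAA (bound by PU.1), TTGCNNAA (bound by C/EBP), AACNG (bound by MYB) or TGTGGT (bound by RUNX). The 4 stretches are chr11:87793534-87793580 for Mpo, chr10:79886097-79886246 for Elane, chr10:79879464-79879613 for Prtn3 and, on the minus strand, chr14:56102575-56102724 for Ctsg.
Mpo: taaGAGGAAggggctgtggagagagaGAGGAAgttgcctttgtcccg
Elane: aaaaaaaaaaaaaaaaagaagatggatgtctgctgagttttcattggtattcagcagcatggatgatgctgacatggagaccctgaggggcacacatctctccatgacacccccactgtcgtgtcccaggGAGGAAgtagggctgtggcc
Prtn3: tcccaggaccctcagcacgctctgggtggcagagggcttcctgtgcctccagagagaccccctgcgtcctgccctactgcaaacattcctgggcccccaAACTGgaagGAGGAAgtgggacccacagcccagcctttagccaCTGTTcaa
Ctsg: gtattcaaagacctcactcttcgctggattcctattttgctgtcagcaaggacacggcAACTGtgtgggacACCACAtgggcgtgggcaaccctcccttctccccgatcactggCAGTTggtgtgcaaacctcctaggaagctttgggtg

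GAGGAA was present at -85 from the RefSeq start in Elane and at -95 in Prtn3, on the plus strand of both, and began at -247 and -224 in Mpo. In Ctsg it began at -216, outside the stretch shown. Of the 9 genes with a RefSeq window, 6 held it (Mpo, Elane, Prtn3, Ctsg, Ms4a3 and S100a8), against 28.3% of all 32851 windows of 300 bases. TTGCNNAA was found in Ms4a3 and S100a9 against 10.8% of all windows, TGTGGT in Ctsg, Lyz2 and S100a9 against 16.8%, and AACNG in 8 of 9 against 80.3%. A match describes the letters of the window and not a bound site, and its relation to the levels was not tested. Cebpe had no entry.

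Ms4a3 (ENSMUSG00000024681, chr19:11629496-11640851, minus strand) encodes a membrane protein of granulocyte and monocyte progenitors. It was at 42.8, 70.2 and 69.1 FPKM in FL-LSKCD201+ and at 0.420, 1.21 and 1.37 in BM-LSKCD201+. The other 9 sorted libraries lay between 0 and 0.260, below each bone marrow library. The fetal liver mean was 60.8-fold above the bone marrow mean.

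Lyz2 (ENSMUSG00000069516, chr10:117277331-117282321, minus strand), the gene for the lysozyme of granulocytes and macrophages, was high in both in vivo groups. It was at 613, 539 and 553 FPKM in FL-LSKCD201+ and at 360.1, 387 and 386 in BM-LSKCD201+, with no overlap and 1.505-fold between the means. The derived cells had 1.84, 1.88 and 2.05 FPKM with CD201 and 1.34, 1.93 and 2.65 without it, and mESC had 0.408, 0.511 and 0.625. The derived groups overlapped each other and both lay above mESC. The near-identical Lyz1 was at or below 0.228 FPKM in all 15 sorted libraries, and reads shared between the pair could be assigned to either.

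S100a8 and S100a9 encode the subunits of calprotectin, which sequesters zinc and manganese. S100a8 was at 284, 669 and 676 FPKM in FL-LSKCD201+, at 71.0, 89.9 and 89.1 in BM-LSKCD201+, and at 0.305 to 1.37 in the other 9 libraries. S100a9 was at 324, 586 and 584 FPKM in FL-LSKCD201+, at 67.1, 82.4 and 88.7 in BM-LSKCD201+, and at 0 to 0.975 in the other 9. For both genes replicate 1 was the lowest fetal liver library, and it was still above each bone marrow library. S100a8 (ENSMUSG00000056054) lies on chr3:90668978-90670035 on the plus strand and S100a9 (ENSMUSG00000056071) on chr3:90692632-90695721 on the minus strand, with 22596 bases between them.

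Cebpa (ENSMUSG00000034957, chr7:35119293-35121928, plus strand), which encodes C/EBPα, ran the other way from 7 of the other genes. It was at 37.8, 42.8 and 40.0 FPKM in bone marrow cells and at 8.54, 6.33 and 6.71 in fetal liver cells. The 3 remaining groups lay between 0.275 and 1.56 FPKM and overlapped, with D5-LSKCD201- at 1.41, 0.275 and 1.56, D5-LSKCD201+ at 0.544, 0.824 and 0.605, and mESC at 0.750, 1.36 and 0.811. The lowest of these values belonged to D5-LSKCD201- replicate 2, the library that stood apart in its group.

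Cebpe (ENSMUSG00000052435, chr14:54710360-54712174, minus strand), which encodes C/EBPε, was highest in fetal liver cells. Its level was 19.5, 20.6 and 21.1 FPKM in FL-LSKCD201+ and 1.38, 1.91 and 1.65 in BM-LSKCD201+. It was at 0.541, 0.580 and 0.621 in mESC, above the 6 libraries of both D5 groups, which lay between 0 and 0.161. The fetal liver mean was 12.4-fold above the bone marrow mean.

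**Figure D1:**
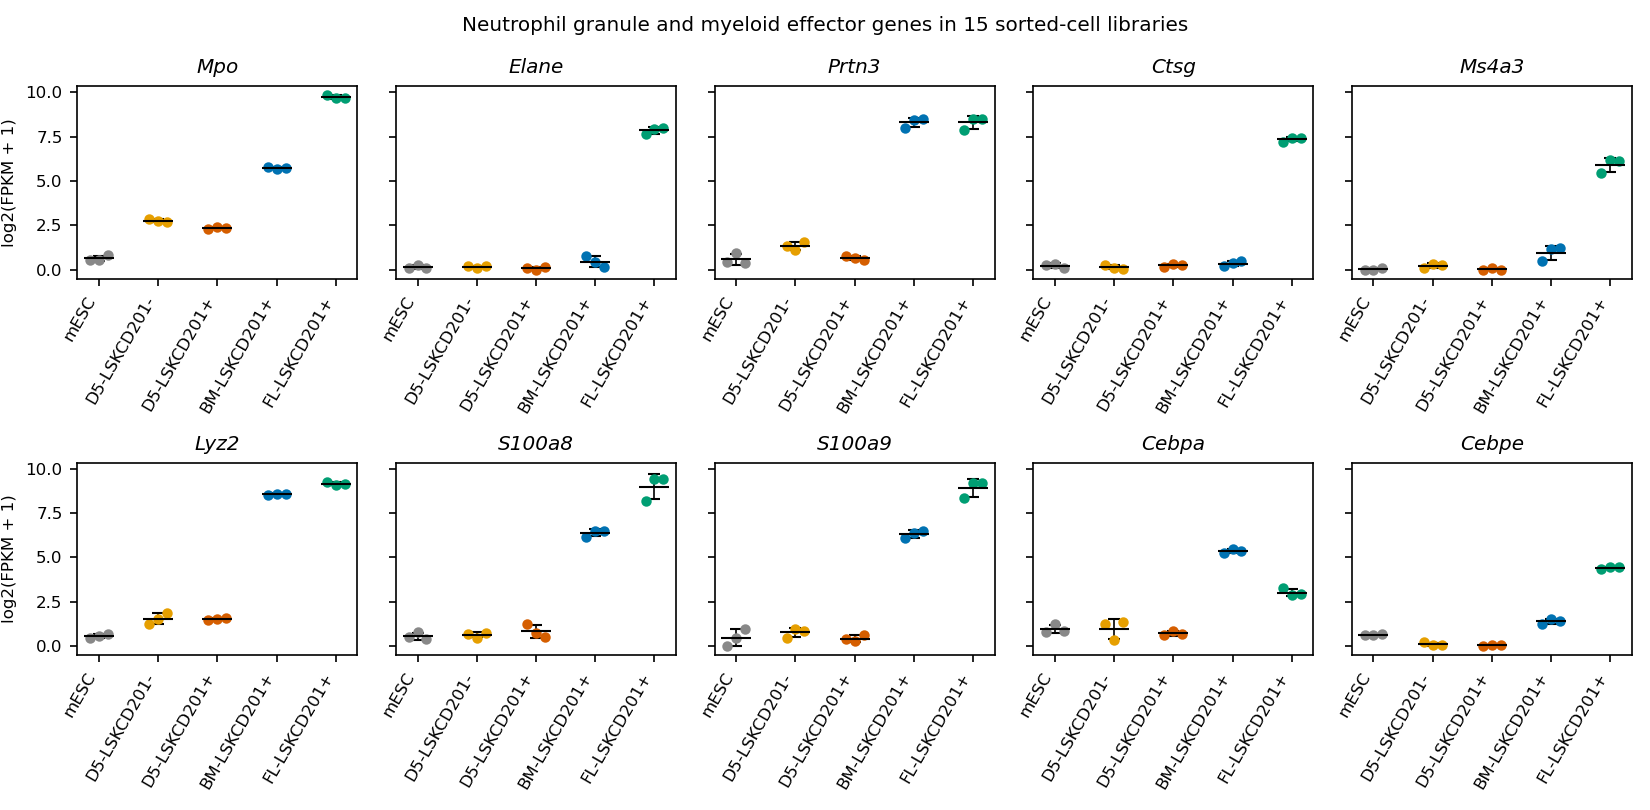
Levels of the 10 genes in the sorted cells, 1 panel for each gene. The vertical axis is log2(FPKM + 1), each point is 1 library, and bars give the mean ± SD of the 3 libraries of a group. The 3 FL-LSKCD201+ libraries were the highest for every gene except Prtn3, where both in vivo groups overlapped, and Cebpa, where the BM-LSKCD201+ libraries were the highest.

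Summed, the 10 genes took 0.546% to 0.571% of all FPKM in FL-LSKCD201+ libraries and 0.152% to 0.167% in BM-LSKCD201+ libraries. The share was 0.00168% to 0.00176% in D5-LSKCD201+, 0.00197% to 0.00246% in D5-LSKCD201-, and 0.000608% to 0.00101% in mESC. The ranges of the groups did not overlap.

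The adult and fetal stem cell gates were compared to see how the program differs between the in vivo references. Of the 10 genes, 7 were lower and 1 was higher in BM-LSKCD201+ than in FL-LSKCD201+, where 19.1% of the 13503 genes tested were called, 7.78% lower and 11.3% higher. The median log2 difference of bone marrow minus fetal liver was -2.81 over the 10 genes and 0.13 over all genes tested. Elane fell by 7.39 (SE 0.18, adjusted p = 6.13e-07), Ctsg by 7.01 (SE 0.12, adjusted p = 2.97e-07), Ms4a3 by 4.95 (SE 0.26, adjusted p = 9.77e-06) and Mpo by 4.01 (SE 0.097, adjusted p = 6.13e-07). Cebpe fell by 3.02 (SE 0.12, adjusted p = 2.89e-06). These 5 genes span the granule enzymes, a progenitor membrane protein and a late granulocyte regulator.

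S100a8 and S100a9 both fell by 2.59, with SE 0.33 and 0.24 and adjusted p = 0.000508 and 0.000124. Without FL-LSKCD201+ replicate 1 the log2 differences were -3.01 for S100a8 and -2.88 for S100a9. Lyz2 had a log2 difference of -0.59 (SE 0.11, adjusted p = 0.00263), which is under the fold that a call requires. Prtn3 differed by 0.00 (SE 0.21, adjusted p = 0.998), and its direction followed single libraries, with -0.20 without FL-LSKCD201+ replicate 1 and 0.16 without BM-LSKCD201+ replicate 1. Cebpa rose by 2.34 (SE 0.12, adjusted p = 1.03e-05), a 5.59-fold difference of the means in favour of bone marrow. All 8 calls were the same when both replicates 1 were left out in turn.

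**Figure D2:**
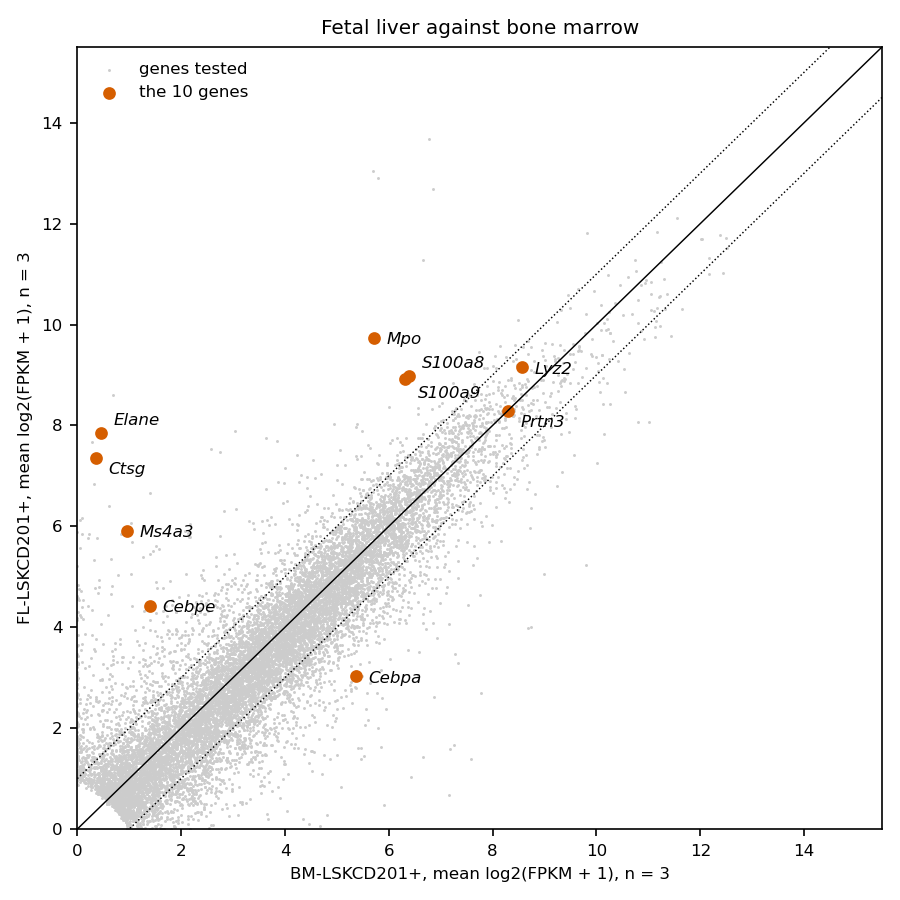
Mean log2(FPKM + 1) in BM-LSKCD201+ (horizontal axis) against FL-LSKCD201+ (vertical axis). Each grey point is 1 of the 13503 genes tested, orange points are the 10 genes, the solid line marks equal levels and the dotted lines a log2 difference of 1. Elane and Ctsg lie near the left edge at a high fetal liver level, Prtn3 lies on the line, and Cebpa is the only orange point below the dotted band.

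The FL-LSKCD201+ libraries also held transcripts of other blood cells. All 7 erythroid markers were lower in bone marrow cells, with a summed level of 4841 to 10901 FPKM in FL-LSKCD201+ and 55.8 to 80.8 in BM-LSKCD201+, and Hba-a1 fell by 7.11. Of 6 eosinophil markers 4 were tested and 3 were lower in bone marrow cells, with sums of 25.6 to 70.7 FPKM in fetal liver and 1.89 to 2.19 in bone marrow, where Ear1, Epx and Prg3 were listed at 0. Of 10 mast cell and basophil markers 9 had values, 7 were tested and 4 were lower, with sums of 117 to 158 FPKM in fetal liver and 105 to 106 in bone marrow. Most of the bone marrow sum was Gata2, which stem cells also express, and without it the sums were 52.2 to 83.4 and 3.82 to 4.96 FPKM. Cma1, Ms4a2 and Tpsab1 were listed at 0 in bone marrow. Of 12 macrophage markers 11 were tested, of which Ctss was higher by 1.49 and Marco and Adgre1 fell by 4.31 and 2.01, with sums of 134 to 242 FPKM in fetal liver and 189 to 197 in bone marrow. The libraries of both groups came from cells sorted as lineage-negative. The part of other blood cells in the granule gene differences was not tested.

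Around these genes, 59 further genes of the myeloid program were followed in 5 lists, and all 59 were tested between the in vivo groups. In total 21 were lower and 6 were higher in BM-LSKCD201+, where 7.78% of all genes tested were lower and 11.3% higher. Among 12 partners of the primary granule, 4 were lower and 2 higher, with a list median of -0.78. Fcnb, which encodes the granule lectin ficolin B, was at 0.905 FPKM in bone marrow and 57.6 in fetal liver (log2 difference -4.99, adjusted p = 2.16e-05). Hp, the gene for haptoglobin, was at 3.26 and 58.8 FPKM (-3.82, adjusted p = 1.41e-06). The proteoglycan gene Srgn, whose product packs proteases into granules, was at 889 and 562 FPKM (0.66, adjusted p = 0.00234, under the fold required), and Plac8 was at 279 and 191 FPKM (0.63, adjusted p = 0.117). The 2 genes that were higher in bone marrow cells, named here after their values were seen, were the protease inhibitor gene Serpinb1a at 155 and 48.0 FPKM (1.67, adjusted p = 5.36e-06) and Nkg7 at 96.7 and 33.2 FPKM (1.51, adjusted p = 2.27e-05).

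The secondary and tertiary granule list had the most genes that were lower in bone marrow cells, 9 of 12, with 1 higher and a list median of -1.49. Ngp, the neutrophilic granule protein, was at 106 FPKM in BM-LSKCD201+ and 259 in FL-LSKCD201+ (-1.30, adjusted p = 0.000185). Camp, which encodes the antimicrobial peptide cathelicidin, was at 46.5 and 169 FPKM (-1.92, adjusted p = 0.00247), and Lcn2, the siderophore-binding lipocalin, at 10.8 and 43.7 (-1.95, adjusted p = 0.000204). Olfm4, which marks a subset of neutrophils, was listed at 0 in the 3 bone marrow libraries and had a mean of 10.8 FPKM in fetal liver. With the closest pair of libraries of each group averaged into 1, 8 of the 12 were lower.

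Among 16 receptors and adaptors, 4 were lower and 1 was higher in bone marrow cells, with a list median of -0.18. The Fc receptor gene Fcgr3 was at 5.35 and 41.1 FPKM (-2.73, adjusted p = 1.74e-06), Csf1r, the receptor for M-CSF, at 0.829 and 9.64 (-2.55, adjusted p = 1.44e-05), and the adaptor gene Tyrobp at 31.8 and 81.2 (-1.31, adjusted p = 0.000243). The gene that was higher was Csf3r, the receptor for G-CSF, named here after its values were seen, with 42.4 FPKM in BM-LSKCD201+ and 18.0 in FL-LSKCD201+ (1.21, adjusted p = 0.000373). Of 6 subunits of the NADPH oxidase, which makes superoxide in phagocytes, only Cybb was called, at 0.580 and 6.19 FPKM (-2.19, adjusted p = 1.22e-05). Its membrane partner Cyba was at 302 and 289 FPKM and the GTPase gene Rac2 at 170 and 177.

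Of 13 transcription factors, 3 were lower and 2 higher (1 under quantile normalization), with a list median of -0.04. Gata1, the erythroid regulator, was at 1.39 FPKM in bone marrow and 41.3 in fetal liver (-4.14, adjusted p = 8.68e-07), beside the erythroid markers above, and Cebpd fell by 1.41 (adjusted p = 4.58e-05). Cebpb, which drives granulocyte production under stress, was at 419 and 117 FPKM (1.82, adjusted p = 0.000124), the same direction as Cebpa. Spi1, which encodes PU.1, was at 231 and 166 FPKM (0.47, adjusted p = 0.00476, under the fold required).

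**Figure D3:**
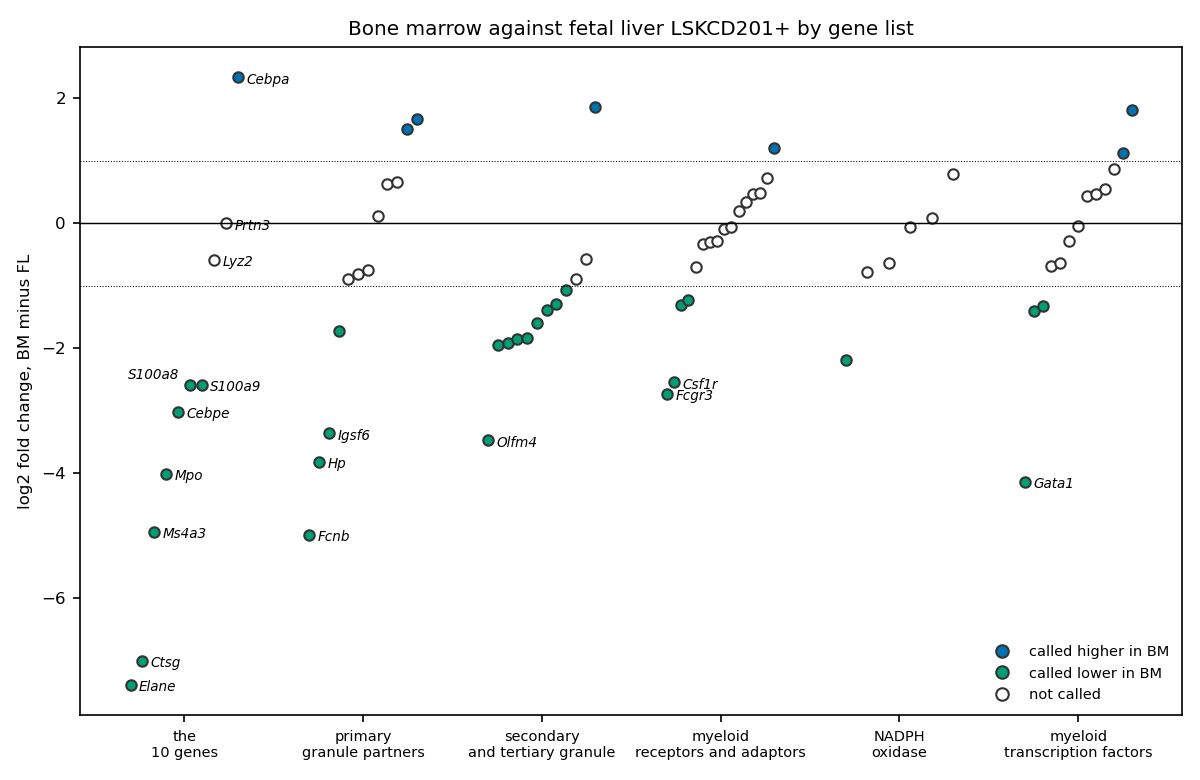
Log2 difference of BM-LSKCD201+ minus FL-LSKCD201+ on the log2(FPKM + 1) scale for the 10 genes and the 59 further genes, arranged by list. Each point is 1 gene, in blue where called higher in bone marrow, in green where called lower, and in white where not called. Of the 12 secondary and tertiary granule genes 9 are green, whereas 1 of the 6 NADPH oxidase genes is.

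The cells derived in culture were then compared with each in vivo group. All 10 genes were higher in FL-LSKCD201+ than in D5-LSKCD201+, where 34.7% of 13627 genes were called, 19.6% higher and 15.1% lower. The median log2 difference was 7.49 over the 10 genes and 0.16 over all genes. On the log2(FPKM + 1) scale the largest were S100a9 at 8.48 (SE 0.24, adjusted p = 2.53e-07) and S100a8 at 8.13 (SE 0.36, adjusted p = 1.89e-06), and the smallest was Cebpa at 2.299 (SE 0.13, adjusted p = 5.68e-06). The 4 primary granule genes and lysozyme lay between, with Elane at 7.77, Prtn3 at 7.63, Lyz2 at 7.60, Mpo at 7.37 and Ctsg at 7.11. Ms4a3 rose by 5.88 and Cebpe by 4.37. The order depends on the pseudocount, since the ratios of mean FPKM were highest for Elane (4220) and Ms4a3 (2810), followed by S100a9 (1388). In D5-LSKCD201+, Elane was at 0.0520, 0 and 0.111 FPKM and Ms4a3 at 0, 0.0648 and 0. The sizes and order of these 2 ratios rest on single libraries near 0 and have no exact meaning.

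Between BM-LSKCD201+ and D5-LSKCD201+, 8 of the 10 genes were tested and 7 were higher, where 44.7% of 13775 genes were called, 27.2% higher and 17.5% lower. This comparison shares its derived libraries with the previous one. Prtn3 rose by 7.63 (SE 0.14, adjusted p = 6.76e-09) and Lyz2 by 7.02 (SE 0.056, adjusted p = 7.38e-10), followed by S100a9 at 5.88, S100a8 at 5.54, Cebpa at 4.64, Mpo at 3.36 and Cebpe at 1.35. Elane and Ctsg were under the filter on low values and overlapped between the groups. Ms4a3 differed by 0.93 (SE 0.19, adjusted p = 0.00253), under the fold required, and by 1.16 (adjusted p = 5.94e-06) without BM-LSKCD201+ replicate 1, which passed it.

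Against the CD201- derived cells, 10 of 10 genes were higher in FL-LSKCD201+ (37.3% of 14336 genes called, 18.7% higher and 18.6% lower), with differences from 2.03 for Cebpa to 8.34 for S100a8. In BM-LSKCD201+ against the same cells, 7 of the 8 genes tested were higher (49.3% of 14515 genes called, 26.3% higher and 23% lower), with Lyz2 at 7.01, Prtn3 at 6.94 and Mpo at 2.95. Ms4a3 was again under the fold, at 0.74 (adjusted p = 0.0108).

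Most of the further myeloid genes that were called were higher in vivo. In FL-LSKCD201+ against D5-LSKCD201+, 49 of the 58 tested were higher and the rest were not called (19.6% higher and 15.1% lower over all genes). In BM-LSKCD201+ against D5-LSKCD201+, 36 of 49 were higher and 4 lower (27.2% higher and 17.5% lower over all genes). The lower ones were Slpi, Csf2rb, Cebpd and Id2, named here after their values were seen, with log2 differences from -1.55 to -1.07. Id2 was at -0.92 without BM-LSKCD201+ replicate 1, under the fold required. Ngp had 0.211 FPKM in D5-LSKCD201+, and rose by 7.74 in fetal liver and by 6.45 in bone marrow. Rac2, at 2.22 FPKM in D5-LSKCD201+, rose by 5.797 and 5.74, and the regulator gene Myb, at 0.448 FPKM, by 5.88 and 6.76.

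Markers of other cells moved in the same comparisons. All 6 endothelial markers were lower in both in vivo groups than in D5-LSKCD201+, with sums of 1158 to 1202 FPKM in the derived cells, 127 to 165 in fetal liver and 110 to 113 in bone marrow. Of 8 OP9-like stroma markers 6 were lower in fetal liver and 7 in bone marrow cells, with sums of 93.6 to 99.3 FPKM in D5-LSKCD201+, 12.2 to 15.1 in fetal liver and 7.06 to 7.54 in bone marrow. Of 7 erythroid markers 6 were higher in fetal liver cells, and in bone marrow cells 2 were higher and 2 lower of 4 tested. Of 12 macrophage markers, 9 were higher and 1 lower of 10 tested in fetal liver cells, and 7 higher and 1 lower of 8 in bone marrow cells. In fetal liver cells 5 of 7 mast cell and basophil and 3 of 4 eosinophil markers tested were higher, with none lower. Of the megakaryocyte markers tested, 4 of 6 were higher and 1 lower in fetal liver cells, and 3 of 5 higher and 1 lower in bone marrow cells. Of 2 lymphoid markers tested, 1 was higher in fetal liver and 2 in bone marrow cells. Against D5-LSKCD201-, all 5 pluripotency markers were lower in both in vivo groups. In the fetal liver cells 6 of 7 erythroid and 8 of 10 macrophage markers tested were higher and 6 of 7 stroma markers lower, and in the bone marrow cells 7 of 8 macrophage markers were higher and 5 of 7 stroma markers lower. Their part in the differences was not tested.

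**Figure D4:**
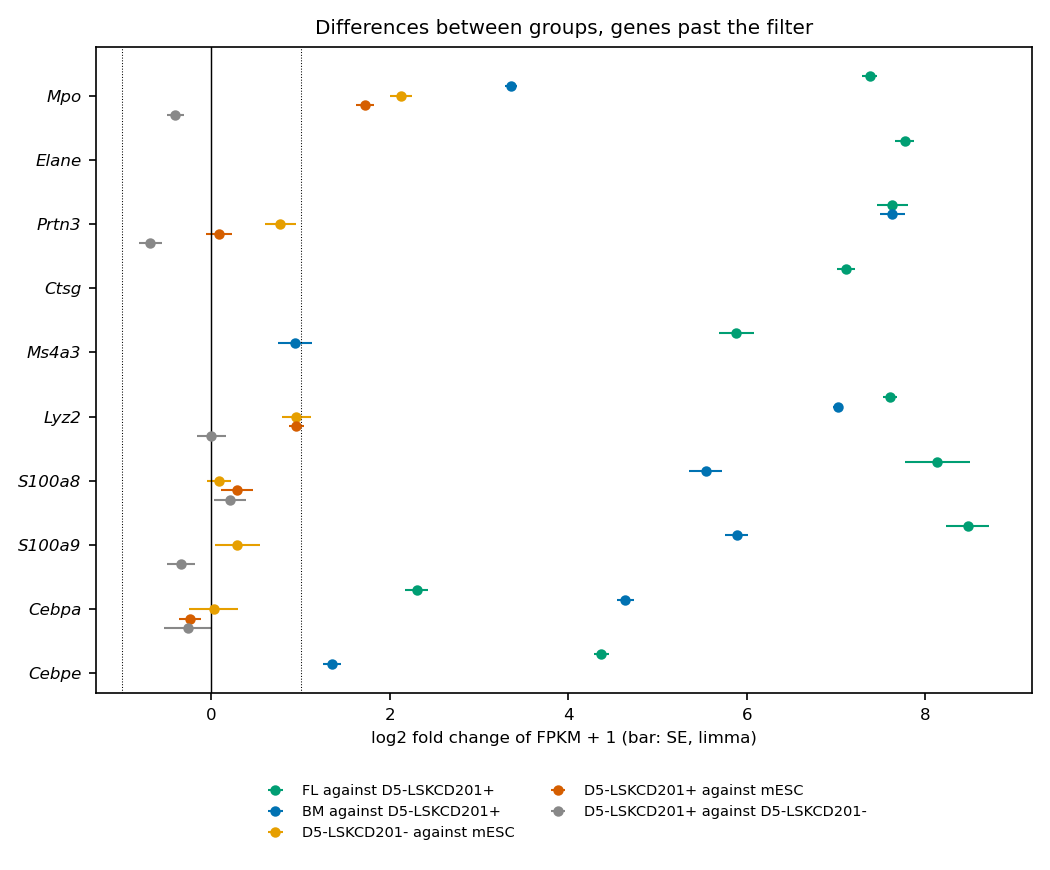
Log2 differences ± SE on the log2(FPKM + 1) scale for the 10 genes in 5 comparisons of the sorted cells: FL-LSKCD201+ and BM-LSKCD201+ against D5-LSKCD201+, each D5 group against mESC, and D5-LSKCD201+ against D5-LSKCD201-. A gene under the filter of 0.5 FPKM in a comparison has no point there. The in vivo differences reach 8.48, whereas Mpo is the only gene beyond 1 among the differences from mESC, at 1.72 and 2.12.

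The derived cells were also compared with the mESC they came from. In D5-LSKCD201+ against mESC, 5 genes were tested and Mpo alone was higher, where 37.6% of 13441 genes were called, 19.5% higher and 18.1% lower. Mpo rose by 1.72 (SE 0.099, adjusted p = 2.44e-07), 7.30-fold between the means, to a mean of 4.13 FPKM. Lyz2 had a difference of 0.95 (adjusted p = 5.18e-06), just under the fold required. The values were 0.08 for Prtn3 (adjusted p = 0.597), 0.29 for S100a8 (adjusted p = 0.157) and -0.24 for Cebpa (adjusted p = 0.104). With 1 of 5 genes higher, the share was close to that over all genes.

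In D5-LSKCD201- against mESC, 6 genes were tested and Mpo alone was higher (14.3% of 13596 genes called, 10.9% higher and 3.48% lower). Mpo rose by 2.12 (SE 0.12, adjusted p = 9.08e-06), 10.3-fold between the means. Prtn3 differed by 0.77 (adjusted p = 0.00801) and Lyz2 by 0.95 (adjusted p = 0.00233), both under the fold. Both comparisons share the mESC libraries, and leaving out mESC replicate 3 brought Lyz2 past the fold in each, at 1.002 and 1.004. Leaving out D5-LSKCD201- replicate 1 did so in the second, at 1.11. Cebpe lay under the filter in both comparisons, and its mESC libraries were above those of each D5 group without overlap. Fitted without the filter, the differences were -0.61 (adjusted p = 1.76e-05) in D5-LSKCD201+ and -0.54 (adjusted p = 0.000699) in D5-LSKCD201-, under the fold required.

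Of the 59 further genes, 30 were tested in D5-LSKCD201+ against mESC, of which 19 were higher and 2 lower (19.5% and 18.1% over all genes). In D5-LSKCD201- against mESC 32 were tested, of which 20 were higher and the rest were not called (10.9% higher and 3.48% lower over all genes). Spi1 rose by 2.83 to 13.0 FPKM among the CD201+ cells and by 1.81 to 5.90 FPKM among the CD201- cells. Csf2rb, the shared receptor chain for IL-3 and GM-CSF, rose by 4.17 to 17.5 FPKM in the CD201+ cells. Srgn rose by 2.08 and 3.69. Ctsc, whose product activates the granule proteases, rose by 2.21 and by 4.55 in D5-LSKCD201-, where Elane and Ctsg themselves stayed at or below 0.222 FPKM. In D5-LSKCD201+ against mESC, 6 of 6 endothelial, 7 of 8 OP9-like stroma and 3 of 3 megakaryocyte markers tested were higher and 5 of 5 pluripotency markers lower. In D5-LSKCD201- against mESC, 5 of 6 endothelial and 6 of 7 stroma markers tested were higher and 2 of 5 pluripotency markers lower. The endothelial sums were 18.5 to 19.5 FPKM in mESC, 57.3 to 58.7 in D5-LSKCD201- and 1158 to 1202 in D5-LSKCD201+, and the stroma sums 7.90 to 8.90, 37.3 to 70.6 and 93.6 to 99.3. In the same order, the pluripotency sums were 1162 to 1196, 618 to 673 and 5.67 to 5.94 FPKM. Their part in these differences was not tested.

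Sorting the derived cells on CD201 was compared next. None of the 6 genes tested was called between D5-LSKCD201+ and D5-LSKCD201- by limma, where 24.7% of 13691 genes were called, 10.8% higher and 13.9% lower. Mpo and Prtn3 had unadjusted p under 0.05, and both had smaller values in the CD201+ cells by less than the fold required. The difference was -0.41 for Mpo (SE 0.096, adjusted p = 0.00743) and -0.69 for Prtn3 (SE 0.13, adjusted p = 0.00265). With a pseudocount of 0.1 in place of 1, Prtn3 fell by 1.27 (adjusted p = 0.00290) and was called.

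The remaining genes overlapped between the gates. The differences were 0.00 for Lyz2 (adjusted p = 0.993), 0.21 for S100a8 (adjusted p = 0.345) and -0.34 for S100a9 (adjusted p = 0.0859). Cebpa differed by -0.27 (adjusted p = 0.395), and by -0.59 (adjusted p = 0.00129) without D5-LSKCD201- replicate 2. The 4 genes not tested, Elane, Ctsg, Ms4a3 and Cebpe, were at or below 0.260 FPKM in all 6 libraries.

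In the further genes, 35 were tested between the gates, with 7 higher and 10 lower in D5-LSKCD201+ (10.8% higher and 13.9% lower over all genes). The lower ones included Mmp9, the gelatinase of tertiary granules, at 1.25 FPKM in CD201+ and 20.2 in CD201- cells (-3.26, adjusted p = 8.47e-06), Plac8 at 1.60 and 14.7 (-2.60, adjusted p = 2.13e-06), and Ctsc at 18.7 and 100.4 (-2.34, adjusted p = 1.73e-05). The higher ones included Csf2rb at 17.5 and 0.845 FPKM (3.33, adjusted p = 1.73e-07), Gata2 at 21.02 and 3.21 (2.42, adjusted p = 3.43e-05) and Spi1 at 13.0 and 5.90 (1.02, adjusted p = 4.05e-05). Spi1 was under the fold at 0.96 without D5-LSKCD201- replicate 1 and at 0.99 without D5-LSKCD201+ replicate 3. All 6 endothelial markers were higher in CD201+ cells, with sums of 1158 to 1202 FPKM against 57.3 to 58.7, and all 5 pluripotency markers were lower, with 5.67 to 5.94 against 618 to 673. Of the erythroid markers 5 were tested, with 3 lower and 1 higher in CD201+ cells, and 3 of 3 megakaryocyte markers tested were higher. Their part in these differences was not tested.

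In the day 5 total cells, coculture on OP9 stroma was compared with gelatin. Cebpa was the only one of the 8 genes that passed the filter, and it was not called by limma (unadjusted p under 0.05 for 0 genes), where 2.62% of 12958 genes were (2.11% higher and 0.509% lower). Cebpa was at 1.45, 1.48 and 0.98 FPKM in 3D+OP9 and at 1.93, 1.69 and 0.76 in 3D+0.1% gelatin. The groups overlapped, with a difference of -0.07 (SE 0.21, adjusted p = 0.886). Of the 3D+OP9 libraries, replicate 3 stood apart. Its SD of the log2 difference from the others was 0.414 and 0.426, against 0.168 between them, over the 12958 genes.

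Mpo lay under the filter but was separated between the cultures. It was at 0.70, 1.02 and 1.16 FPKM in 3D+OP9 and at 0, 0 and 0.08 in 3D+0.1% gelatin. Fitted without the filter, it differed by 0.93 (SE 0.097, adjusted p = 0.00568), under the fold required. Lyz2 was at 0.20, 0.25 and 0.20 FPKM against 0.10, 0 and 0, with a difference of 0.24 without the filter (adjusted p = 0.0442), also under the fold.

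The granule proteases were near 0 in both cultures. Prtn3 was at 0.27, 0.16 and 0.06 FPKM in 3D+OP9 and at 0.33, 0.05 and 0.05 on gelatin, and Elane at 0.11, 0 and 0 against 0.12, 0 and 0. Ctsg was listed at 0 in all 6 libraries. Cebpe reached at most 0.09 FPKM and Ms4a3 at most 0.05. OP9 stroma is itself of mouse origin, and 8 markers of such stroma summed to 60.2 to 72.2 FPKM in 3D+OP9 and 35.2 to 44.2 on gelatin. Its part in these values was not tested.

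**Figure D5:**
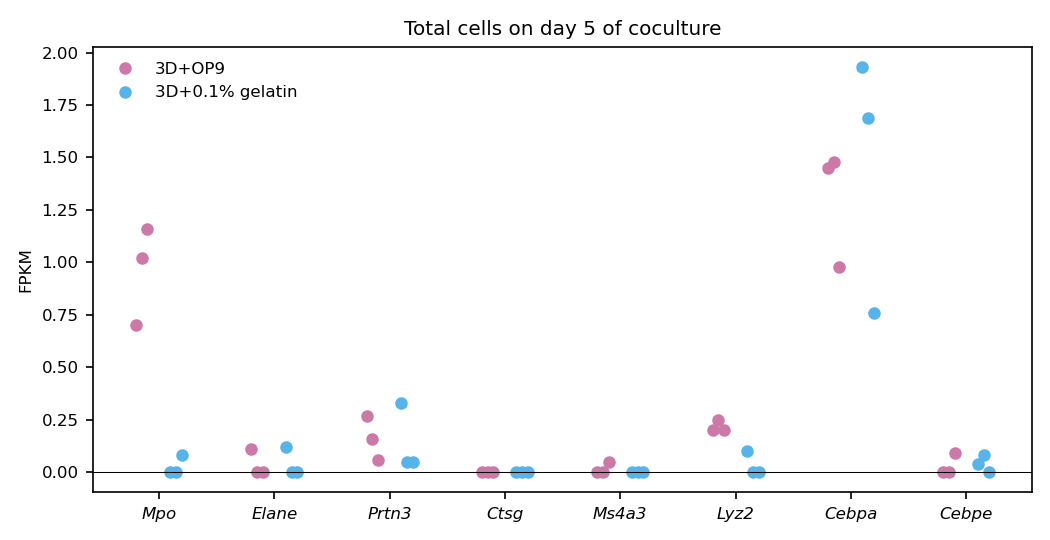
FPKM of the 8 genes with values in the day 5 total cells, 1 point for each of the 3 libraries on OP9 stroma (3D+OP9) and on 0.1% gelatin. Mpo in 3D+OP9 lies between 0.70 and 1.16 and above the gelatin libraries, at most 0.08, whereas Cebpa overlaps between the cultures.

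Of the 59 further genes, 28 were tested between the cultures, with 7 higher on OP9 and the rest not called (2.11% higher and 0.509% lower over all genes). Of the transcription factor genes, those that rose most were Gata1 at 3.95 FPKM against 0.123 (2.13, adjusted p = 0.000722), Gfi1b at 2.54 against 0.0867 (1.70, adjusted p = 0.000838) and Spi1 at 2.49 against 0.263 (1.47, adjusted p = 0.00241). Slpi, an inhibitor of elastase and cathepsin G, rose by 1.69 (adjusted p = 0.0150) and Hp by 1.51 (adjusted p = 0.0482), and 3D+OP9 replicate 3 was the lowest library for Hp, at 0.76 FPKM against 4.29 and 2.26. With 1 library left out, 0 to 2 of these partners of the primary granule and 3 to 5 of the transcription factors were called. The 1 receptor gene called, Csf2rb (1.042), was lost without 3D+OP9 replicate 2, at 0.948. The call was also lost without 3D+OP9 replicate 1, although the difference was about as large, at 1.036. It was lost too with the filter at 1 FPKM and under quantile normalization. A secondary granule gene was called without 3D+OP9 replicate 3, with the replicate block and with a pseudocount of 0.1. The summed erythroid markers were at 148 to 506 FPKM on OP9 and 4.81 to 15.1 on gelatin, and the endothelial ones at 83.1 to 99.1 and 9.52 to 21.04. The 5 pluripotency markers summed to 502 to 764 FPKM on OP9 and 830 to 910 on gelatin, with 2 called higher on OP9 and 3 not called. Their part in these differences was not tested.

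Across the 15 sorted libraries, the 10 genes varied together to differing degrees. Pearson's r of log2(FPKM + 1) ran from 0.62 to 0.998 with a median of 0.906 over the 36 pairs without Cebpa, and from 0.24 to 0.90 with a median of 0.635 over the 9 pairs with it. The closest pair was Elane and Ctsg, and the least alike was Ctsg and Cebpa. Cebpa was as close to Prtn3 (r = 0.900) and Lyz2 (r = 0.873) as many of the other pairs were to each other, and Prtn3 with Ctsg reached 0.625. These values are a description, since the libraries fall into 5 groups and share their group means.

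The genes whose pattern over the 15 libraries was most like that of Mpo were Fcgr3 (r = 0.994), Cd300c2 (r = 0.987), RP24-286J21.7 (r = 0.987), Hist1h2bg (r = 0.984) and Stradb (r = 0.981). For S100a8 they were Camp and Lcn2 (both r = 0.995), Slamf1 and Gapt (both r = 0.994) and Hoxa5 (r = 0.993). For Lyz2 they were Btk (r = 0.999), Rgcc (r = 0.997), and Sesn1, Milr1 and Gp9 (each r = 0.996). For Cebpa they were H2-Oa (r = 0.995), Runx3 (r = 0.994), and Xpc, Sh2d5 and Arid1b (each r = 0.992). With 2 high groups and 3 low ones, many genes reach such values.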

How the data were processed

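Total RNA (TRIzol) was made into libraries with the VAHTS mRNA-seq v2 kit and sequenced on an Illumina HiSeq X. The authors deposited FPKM values per gene in 2 tables, one for the 15 libraries of sorted cells and one for 6 libraries of day 5 total cells. The submitters' processing notes name HISAT2 2.0.5, StringTie 1.3.3 and Cuffdiff 1.3.0 and list the builds GRCm38 and mm9, with no role for each. The tables were normalized separately, so tests stayed within a table, and read numbers per library are not given in the sources used here. Values are not counts. They were analysed as log2(FPKM + 1) by two-sided tests in limma 3.58.1 under R 4.3.3, with its trend option. Each pair of groups was fitted alone, and genes averaging under 0.5 FPKM across those 6 libraries were left out. A gene was called at an adjusted p (Benjamini-Hochberg, all genes tested) under 0.05 and an absolute log2 difference of at least 1. A single gene compared by exact permutation of 3 against 3 libraries could not go below p = 0.1. The fit recovered, on simulated data, 84% of genes changed by 1.5 and 96% of those changed by 3 on the log2 scale between BM-LSKCD201+ and FL-LSKCD201+. The changed genes were drawn from those averaging at least 2 FPKM, so these rates do not cover genes with lower values.

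Where a symbol had several identifiers, the one with the highest mean was used. All 10 genes are named. In each of the 5 lists of further genes, up to 4 were named per comparison, those with the highest mean FPKM or the largest change among those called. Any others are said to have been named after their values were seen. The genes and lists were chosen with earlier results of these data known. As alternatives, each library was left out, the replicate number was fitted as a block, the pseudocount was set to 0.1, the filter was dropped or raised to 1 FPKM, values were quantile-normalized, the trend in the prior variance was dropped, the 5 sorted groups were fitted together, and the call was made on adjusted p alone. After the data were seen, the closest 2 libraries of a group were also averaged into 1. This was not done between the cultures or for D5-LSKCD201+ against mESC. Replicate numbers 1, 2 and 3 were shared by all groups. Deviations from the group means correlated between same-numbered BM-LSKCD201+ and FL-LSKCD201+ libraries (r = 0.242, 0.202 and 0.159), a pairing that no label gives. BM-LSKCD201+ replicate 3 with FL-LSKCD201+ replicate 2 (r = 0.205) and replicate 2 with replicate 3 (r = 0.162) correlated as well. Replicate 1 of either group against replicates 2 and 3 of the other gave negative values, from -0.242 to -0.190. The values therefore set replicate 1 apart from replicates 2 and 3 in both groups, and do not pair replicates 2 and 3 by number. No label gives a batch, and a batch shared by the 2 groups was not tested. Positions are from GENCODE M21 (GRCm38) and promoter windows from RefSeq (GRCm38.p6). Python 3.11.15 and matplotlib 3.10.9 were used for summaries and plots.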

Additional observations from a re-analysis of the deposited data

How the results depend on the processing

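Of 931 values of the 10 genes recomputed under the alternatives, 890 kept their direction and side of the threshold, 18 passed the threshold only under the alternative and 23 changed sign. All 10 genes were higher in FL-LSKCD201+ than in both derived groups under every alternative. Between bone marrow and fetal liver, 7 genes were lower under every alternative but adjusted p alone, with 8. In BM-LSKCD201+ against each derived group, 7 genes were higher in the main result, 6 with the filter at 1 FPKM, and 8 with a pseudocount of 0.1 or adjusted p alone. Leaving out 1 library gave 7 to 8 against D5-LSKCD201+. Over all genes, the share called between bone marrow and fetal liver was 19.1%, 10.9% with no filter and 55.1% with adjusted p alone, and the share between the cultures was 1.61% to 3.45% with 1 library left out. Against mESC, the 1 gene higher in D5-LSKCD201+ became 2 with a pseudocount of 0.1, with adjusted p alone, and 1 to 2 with 1 library left out. In D5-LSKCD201- it became 3 with a pseudocount of 0.1 and with adjusted p alone, and 1 to 2 with 1 library left out. In D5-LSKCD201+ against D5-LSKCD201-, 0 genes lower became 1 with a pseudocount of 0.1 and 2 with adjusted p alone.

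Every value that changed sign was small. With 1 library left out, the ranges were -0.29 to 0.075 for Cebpa between the cultures, -0.16 to 0.16 for Lyz2 between the D5 gates, -0.013 to 0.14 for Prtn3 in D5-LSKCD201+ against mESC, -0.0053 to 0.16 for S100a8 and -0.16 to 0.35 for Cebpa in D5-LSKCD201- against mESC, and -0.20 to 0.16 for Prtn3 between bone marrow and fetal liver. With a pseudocount of 0.1, Lyz2 differed by 0.012 between the gates and Cebpa by -0.088 in D5-LSKCD201- against mESC. Under quantile normalization, Lyz2 and Cebpa differed by 0.21 and 0.039 between the gates, and S100a8 and Cebpa by -0.21 and -0.27 in D5-LSKCD201- against mESC. With the closest pair averaged, Cebpa differed by -0.14 in the latter and Prtn3 by 0.0215 between the in vivo groups. The cause was not tested.

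Quantile normalization moved the median of all genes from 0.23 to 0.02 in BM-LSKCD201+ against D5-LSKCD201+. With the replicate block, no call of the 10 genes changed in any comparison, and S100a8 between bone marrow and fetal liver had an adjusted p of 0.000611. As far as the labels show, same-numbered libraries shared only a number. Outside bone marrow against fetal liver, their correlations ran from -0.197 to 0.291. FPKM below about 1 rest on an unknown number of reads. This limits Elane and Ctsg in every sorted group but FL-LSKCD201+, and Ms4a3, Cebpe and S100a9 in the D5 and mESC groups. Prtn3 and S100a8 are limited in part of these groups. So are Cebpa in D5-LSKCD201+, D5-LSKCD201- replicate 2 and mESC (mean 0.973), and Mpo and Lyz2 in mESC. The folds of Mpo over mESC therefore rest on such values. Ms4a3 had a mean of 0.999 in BM-LSKCD201+ and 0.420 in its replicate 1, which limits its difference between the in vivo groups. Most of the 8 genes in the day 5 total cells are also limited.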

Other observations

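Some genes of the other granulocytes also differed between the in vivo gates: 3 of 4 eosinophil and 4 of 7 mast cell and basophil markers tested were lower in bone marrow cells, and the rest were not called. Over all 13503 genes tested, 7.78% were lower. Prg2, the major basic protein of eosinophils, was at 18.3, 59.2 and 55.5 FPKM in FL-LSKCD201+ and at 0.856, 0 and 0.0619 in BM-LSKCD201+ (log2 difference -5.01). Hdc, which makes histamine in basophils and mast cells, was at 27.9, 25.2 and 27.8 FPKM against 0.106, 0.569 and 0.369 (-4.39), and the basophil protease gene Mcpt8 at 14.7, 7.11 and 8.18 against 0, 0.318 and 0.314 (-3.13). Replicate 1 was the lowest fetal liver library for Prg2 and the highest for Mcpt8. In the derived cells Prg2 was at 1.57, 1.56 and 1.64 FPKM in D5-LSKCD201- and at or below 0.144 in D5-LSKCD201+. Of the lymphoid markers, Dntt, the terminal transferase of early lymphoid progenitors, was higher in BM-LSKCD201+ by 4.61.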
